A study of Mus musculus with 8 samples.

Results

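The Notch receptors Notch1, Notch2, Notch3 and Notch4, the ligands Jag1, Jag2 and Dll4 and the target genes Hes1, Hey1 and Heyl were followed in mouse liver RNA. These 10 genes were taken by symbol from a table of read counts for 54232 genes, and each symbol named 1 row. The libraries came from livers of mice 6 months old, 4 wild type (WT) and 4 Atp7b KO. Atp7b is a copper transporter of the hepatocyte, and mutations in the human gene cause Wilson disease, in which copper builds up in the liver. Neither strain, sex nor the kind of Atp7b allele is stated in the labels. The labels also leave unsaid whether libraries are from different animals, and each p-value is therefore a statement about spread among libraries, which may be technical.

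Notch receptors are surface proteins that are switched on by ligands of the Jagged and Delta-like families on a neighbouring cell. The bound receptor is cut by ADAM proteases and then by the gamma-secretase complex, and its intracellular part enters the nucleus, binds RBPJ and Mastermind proteins and switches on repressor genes of the Hes and Hey families. In liver, Jag1 and Notch2 are known for building the bile ducts, and loss of either in humans causes Alagille syndrome, in which bile ducts are scarce. Dll4 and Notch4 are best known from endothelial cells, and Notch3 from the mural cells that wrap vessels.

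Totals ran from 9880253 to 27530506 counts per library. Atp7b itself read 28.9, 32.0, 9.63 and 27.4 CPM (counts scaled to a common library size) in WT and 8.76, 8.91, 6.50 and 7.15 CPM in KO, a log2 fold change of -1.65 ± 0.32 (SE, n = 4 and 4, adjusted p = 0.00313). All WT libraries lay above all KO libraries, but WT replicate 3, at 9.63 CPM, lay far nearer to the KO libraries than to the other WT libraries. That library stood apart in other ways too. Its log2 levels correlated with other WT libraries at 0.925 to 0.944, against 0.975 to 0.986 among those others. It held the lowest WT value of 9 of the 10 Notch genes and the highest of Hes1, so results are given with and without it where it decides them. Over all genes tested it was the lowest WT library for 41.0% and the highest for 38.0%. That share followed base composition, from 12.4% lowest among the 3949 genes with the least G and C to 59.7% among the 3949 with the most. Notch1, Notch3, Notch4, Jag2, Dll4 and Heyl lie above 81.0% or more of the genes tested in G and C content, with 55.2% to 61.9% G and C in their longest transcript. The Notch genes did not all follow this order: against the other WT libraries, replicate 3 read log2 -1.08 for Jag1 and -1.84 for Hey1, which exceed only 47.3% and 67.4% of genes in G and C content. Hes1, above 57.6% of genes, read 0.93 higher there.

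Notch4 and Dll4 passed the test, and both fell. Of the 10 genes, 8 had enough reads for the test, and at an adjusted p under 0.05 this endothelial pair was called lower in KO and 0 genes were called higher. At an unadjusted p under 0.05 there were 4 genes, the other 2 being Notch1 and Notch3. The share of all genes at that unadjusted threshold is not given here, and it cannot be below the share called after adjustment. Over all 15811 genes tested, 30.0% were called, 17.6% higher and 12.5% lower, so calls among the Notch genes were not more common than among genes at large. Notch1 read above WT in every KO library without passing the test. The remaining receptors, ligands and targets overlapped between genotypes, except Hey1, which had too few reads for the test.

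**Figure D1:**
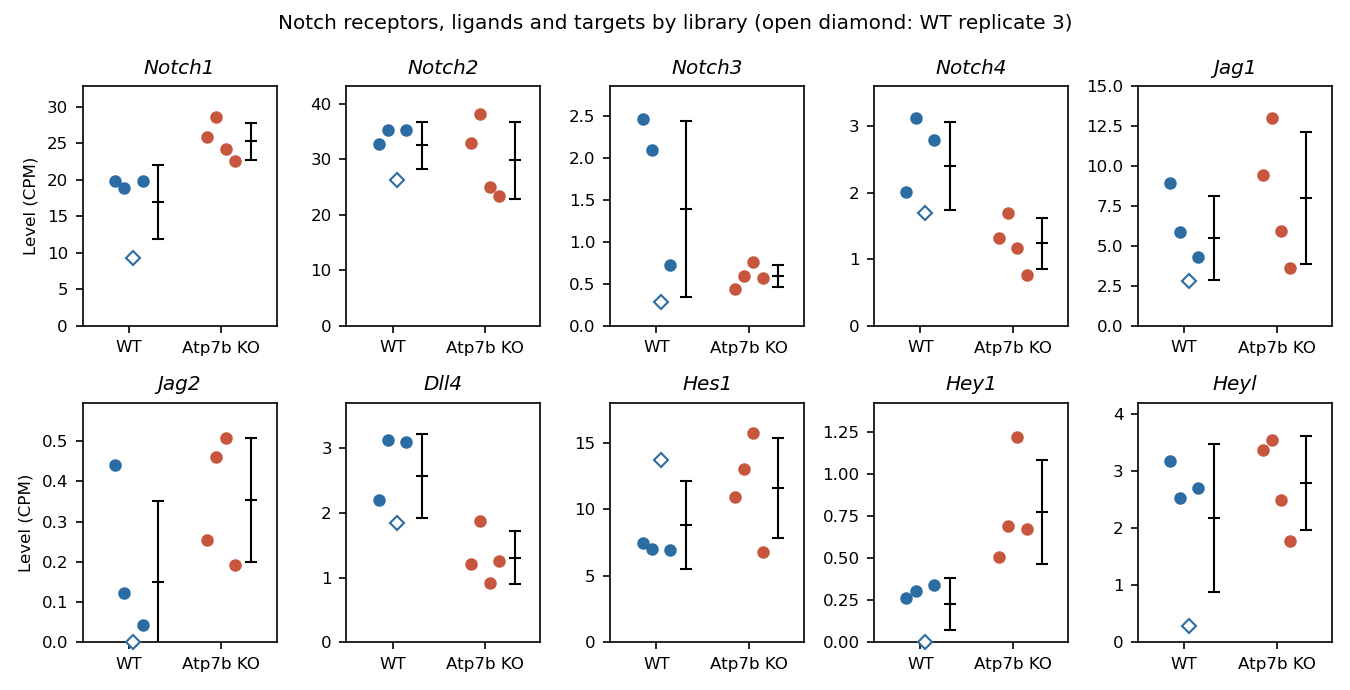
Level of each Notch gene in CPM (linear axes from 0) in each of the 4 WT and 4 Atp7b KO libraries, with the mean and SD beside the points (the lower Jag2 bar is clipped at 0). Notch4 and Dll4 lay lower in KO apart from 1 library each, Notch1 and Hey1 did not overlap, and WT replicate 3 (open diamond) was the lowest WT library in every panel but Hes1.

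Notch2 was the receptor with the most reads. Notch2 (ENSMUSG00000027878.11, mm10 chromosome 3, 98013527 to 98150361, plus strand), the receptor needed for bile duct formation, read 32.8, 35.3, 26.3 and 35.3 CPM in WT replicates 1 to 4 and 33.0, 38.1, 25.0 and 23.3 CPM in KO replicates 1 to 4. The genotypes overlapped, with KO libraries at both ends of the range. The log2 fold change was -0.12 ± 0.20 (SE, adjusted p = 0.68), with a 95% interval of -0.56 to 0.31.

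Notch1 (ENSMUSG00000026923.15, chromosome 2, 26457903 to 26516663, minus strand), the receptor with broad use across epithelial, endothelial and blood cells, read 19.8, 18.9, 9.34 and 19.8 CPM in WT. In KO it read 25.8, 28.6, 24.2 and 22.6 CPM. All 4 KO libraries lay above the highest WT library. Among genes tested, 32.1% had no overlap between genotypes, 18.7% with KO above and 13.4% with KO below. The log2 fold change of 0.57 ± 0.23 (95% interval 0.05 to 1.08, 1.48-fold) missed the threshold at adjusted p = 0.0919. Without WT replicate 3 the difference was smaller, 0.36, and passed (adjusted p = 0.0289), in a fit that called 49.3% of all genes. With an offset for G and C content and exon length it was 0.72 and also passed (adjusted p = 0.00117, 37.1% of genes called). Within the 3 runs of library numbers, described under processing, the log2 difference was 0.46, 1.36 and 0.23. The 1.36 came from the run whose only WT library is WT replicate 3. Exons of the antisense gene 0610009E02Rik overlap 1068 bases of Notch1 exon, and with the strand setting not given its reads cannot be told from those of Notch1. That antisense gene read 284 counts in WT and 493 in KO over the 4 libraries each, against 1060 and 1978 for Notch1.

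Notch3 (ENSMUSG00000038146.7, chromosome 17, 32120820 to 32166852, minus strand), the mural cell receptor, split the WT libraries. It read 2.46 and 2.09 CPM in WT replicates 1 and 2, but 0.283 CPM (2 counts) and 0.729 CPM (17 counts) in replicates 3 and 4. KO libraries read 0.444, 0.597, 0.762 and 0.576 CPM, inside the WT range. Its log2 fold change was -1.24 ± 0.52 (95% interval -2.39 to -0.10, adjusted p = 0.097). It passed without WT replicate 3 (-1.49, adjusted p = 0.0108) and did not keep its direction within library number runs, at -2.03, 1.13 and -0.98. The 1.13 came from the run whose only WT library is WT replicate 3.

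Notch4 (ENSMUSG00000015468.14, chromosome 17, 34564268 to 34588503, plus strand), the endothelial receptor, fell 1.98-fold. It read 2.02, 3.13, 1.70 and 2.79 CPM in WT and 1.33, 1.70, 1.17 and 0.767 CPM in KO. KO replicate 2 reached the level of WT replicate 3, and the other 3 KO libraries lay below all WT libraries. The fitted log2 difference was -0.99 ± 0.31 (95% interval -1.67 to -0.30, adjusted p = 0.0344). The gene had 12 to 65 counts per library, and the call depended on the set of libraries. It was lost without WT replicate 2 (adjusted p = 0.098), WT replicate 4 (0.0865) or KO replicates 1, 3 or 4 (0.0676, 0.0875 and 0.0852), and held without WT replicate 3 (-1.12, adjusted p = 0.00834). The call was lost too when libraries were scaled by upper quartiles (adjusted p = 0.062) or by their totals alone (-0.57, adjusted p = 0.234), and with the number runs as a covariate (0.0627). Within those runs it was lower in KO in all 3, by -0.40, -0.50 and -1.80.

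Of the ligands, Dll4 alone passed the test. Dll4 (ENSMUSG00000027314.6, chromosome 2, 119325784 to 119335962, plus strand), the Delta-like ligand of arterial and sprouting endothelium, read 2.20, 3.13, 1.84 and 3.09 CPM in WT. It read 1.21, 1.88, 0.914 and 1.25 CPM in KO, where replicate 2 lay just above the lowest WT library and the other 3 lay below it. The log2 fold change was -0.99 ± 0.30 (95% interval -1.64 to -0.33, 1.98-fold lower, adjusted p = 0.0282). The counts behind it were 13 to 72 per library. As for Notch4, the call held without WT replicate 3 (-1.11, adjusted p = 0.00669). It was lost without WT replicates 2 or 4 (adjusted p = 0.0777 and 0.0797) or KO replicates 1, 3 or 4 (0.0726, 0.0837 and 0.067), when scaled by upper quartiles (0.051) and by totals alone (-0.57, adjusted p = 0.213). Within number runs the difference was -0.51, -0.92 and -1.24. Scaling by totals alone moved the median over all genes tested from -0.05 to 0.37 (log2), and this shift nearly equals that of both genes.

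The letters upstream of the start of these 2 called genes are shown because both genes fell by the same factor. They are the 250 bases before the RefSeq start of each gene (build GRCm38.p6; for Notch4 this start lies inside the annotated gene given above), 5′ to 3′ on the gene's strand, with each GGAA or TTCC in capitals, the core letters that ETS factors bind.
Notch4, chr17:34564045-34564294, plus strand: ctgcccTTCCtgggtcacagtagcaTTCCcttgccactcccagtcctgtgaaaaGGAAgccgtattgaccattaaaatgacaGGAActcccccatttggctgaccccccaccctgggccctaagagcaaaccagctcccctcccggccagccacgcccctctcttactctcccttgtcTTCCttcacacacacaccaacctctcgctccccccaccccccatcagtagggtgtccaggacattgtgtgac
Dll4, chr2:119325534-119325783, plus strand: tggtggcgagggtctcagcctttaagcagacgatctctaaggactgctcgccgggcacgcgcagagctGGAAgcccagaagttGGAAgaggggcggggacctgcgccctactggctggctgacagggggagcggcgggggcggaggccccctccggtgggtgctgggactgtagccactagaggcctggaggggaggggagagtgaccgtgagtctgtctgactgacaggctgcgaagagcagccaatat
GGAA was matched 5 times in the Notch4 window and 2 times in the Dll4 window on either strand, and 93.4% of all 32851 promoter windows of that length hold it. The RBPJ core TGGGAA, the ETS site CCGGAA and the E-box CACGTG, also searched on both strands, had 0 matches in the windows of Notch1, Notch2, Notch3, Notch4, Jag1, Jag2 and Dll4. They occur in 21.6%, 12.0% and 6.02% of all windows. As for Notch4, the RefSeq starts used for Notch1, Notch2, Jag1 and Jag2 lie inside the annotated genes, so those windows overlap them. The letters GGAA are also part of TGGGAA and of CCGGAA, so these searches overlap.

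Jag1 (ENSMUSG00000027276.7, chromosome 2, 137081456 to 137116644, minus strand), the ligand of bile duct formation, varied more within genotypes than between them. It read 8.97, 5.90, 2.83 and 4.29 CPM in WT and 9.46, 13.0, 5.94 and 3.60 CPM in KO. KO replicate 4 lay below WT replicates 1, 2 and 4, while KO replicates 1 and 2 lay above all WT libraries. This gave a log2 fold change of 0.53 ± 0.42 (95% interval -0.40 to 1.47, adjusted p = 0.381), and none of the 19 alternatives called it. The interval includes 0. The order of the KO libraries, replicate 2, then 1, 3 and 4, was also that of the bile duct keratin Krt19, of Cftr, of Spp1 and of Sox9. The lowest KO value came from replicate 4 for 9 of 10 cholangiocyte markers and 7 of the 10 Notch genes, against 22.5% of all genes tested.

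Jag2 (ENSMUSG00000002799.6, chromosome 12, 112907819 to 112929776, minus strand), the second Jagged ligand, was close to the limit of detection. It had 5, 2, 0 and 1 counts in WT and 4, 10, 10 and 4 counts in KO. WT replicate 1 lay within the KO range. The ratio of summed counts was 2.60 with a counting interval of 1.16 to 6.61, which covers counting error only. An exact two-sided permutation test of the library labels gave p = 0.143, where the smallest possible is 0.0286.

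The target genes did not pass the test in either direction. Hes1 (ENSMUSG00000022528.8, chromosome 16, 30064384 to 30067796, plus strand), a repressor induced by Notch in many tissues, read 7.48, 7.01, 13.7 and 6.95 CPM in WT. It read 10.9, 13.0, 15.7 and 6.81 CPM in KO, where replicate 4 was at the level of the lowest WT library. For Hes1 the log2 fold change was 0.42 ± 0.30 (95% interval -0.25 to 1.10, adjusted p = 0.33). Without WT replicate 3, which was far above the other WT libraries, it was 0.69 with adjusted p = 0.0322. The same fit with the G and C offset gave 0.59 and adjusted p = 0.0553.

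Hey1 (ENSMUSG00000040289.8, chromosome 3, 8663359 to 8667256, minus strand), a target used in endothelium and other tissues, had 3, 5, 0 and 8 counts in WT and 8, 15, 24 and 14 in KO. This is 0.264, 0.307, 0 and 0.343 CPM against 0.508, 0.689, 1.22 and 0.671 CPM. All KO libraries lay above all WT libraries, although the 0 in WT replicate 3 allows up to 0.425 CPM. The ratio of summed counts was 2.83, with a counting interval of 1.61 to 5.27. The exact two-sided permutation p was 0.0286, the smallest that 4 against 4 libraries can give. With no filter on low counts the log2 fold change was 1.53 ± 0.52 (adjusted p = 0.0313), in a fit that called 18.5% of 34236 genes. The median over all genes of that fit was 0.37, beside -0.05 with the filter. KO libraries had counts for 26082 to 27149 genes each, and WT libraries for 19726 to 23119.

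Heyl (ENSMUSG00000032744.4, chromosome 4, 123233556 to 123249875, plus strand), a target known from vascular smooth muscle, read 3.17, 2.52, 0.283 and 2.70 CPM in WT and 3.36, 3.54, 2.49 and 1.77 CPM in KO. WT replicate 3 rested on 2 counts, and the other 3 WT libraries lay within the KO range. The log2 fold change of 0.29 ± 0.45 (95% interval -0.71 to 1.30, adjusted p = 0.67) came to -0.01 without that library.

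**Figure D2:**
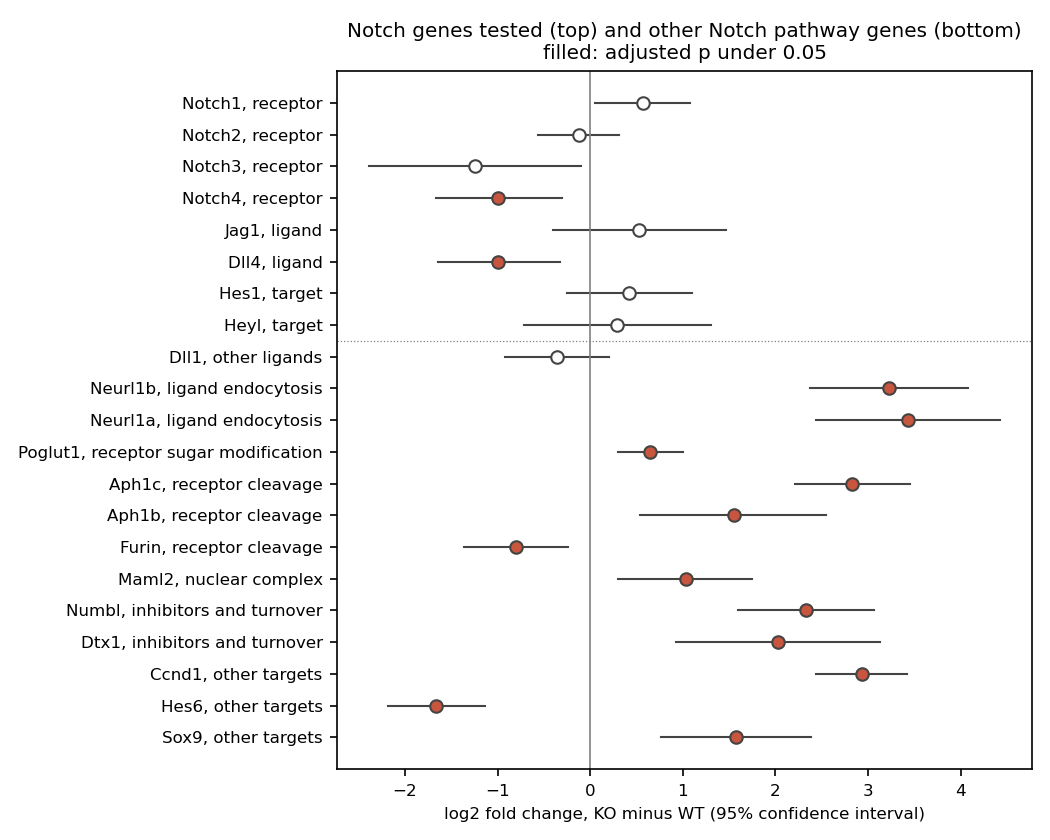
Fitted log2 fold change (KO minus WT) with its 95% interval for the 8 Notch genes tested and, under the dotted line, for the pathway genes named by rule. Filled points passed an adjusted p of 0.05, which among the Notch genes holds for Notch4 and Dll4 at -0.99 each.

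Levels of different genes were compared per kilobase of exon. Notch2 was the most abundant receptor in each of the 8 libraries, at 3.01 ± 0.394 RPKM (CPM divided by exon length in kilobases, SD, n = 4) in WT and 2.77 ± 0.644 in KO. Notch1 followed at 1.19 ± 0.358 and 1.78 ± 0.178 RPKM, also in every library. Notch4 (0.299 ± 0.0823 and 0.154 ± 0.0480 RPKM) and Notch3 (0.172 ± 0.130 and 0.0735 ± 0.0161 RPKM) came last, and in WT replicate 1 Notch3 exceeded Notch4. Among ligands in WT, Jag1 (0.944 ± 0.452 RPKM), Dll1 (0.938 ± 0.255) and Dll4 (0.666 ± 0.168) did not differ beyond their spread, and Jag2 lay far below at 0.0217 ± 0.0286. In KO, Jag1 was at 1.37 ± 0.709, Dll1 at 0.738 ± 0.127 and Dll4 at 0.341 ± 0.106 RPKM. Hes1 led the targets in every library, at 4.32 ± 1.62 RPKM in WT and 5.70 ± 1.84 in KO, ahead of Heyl (0.424 ± 0.251 and 0.546 ± 0.160) and Hey1 (0.0700 ± 0.0477 and 0.236 ± 0.0947).

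Shares of the summed receptor level describe the same values in another way. They do not depend on how libraries are scaled, they add to 100% so that a higher share of one receptor lowers the others, and no test was made on them. Notch1 held 27.9%, 25.3%, 19.6% and 27.2% of the summed receptor level in WT and 35.6%, 34.5%, 40.0% and 40.6% in KO. Every KO share lay above every WT share. Notch4 held 5.03% to 7.40% in WT and 2.43% to 3.62% in KO, without overlap. Notch2 held 61.0% to 73.0% in WT and 54.4% to 60.6% in KO, a gap no wider than that between neighbouring libraries, and its own level overlapped between genotypes. Notch3 overlapped, at 1.05% to 6.10% and 1.08% to 2.21%. Of the ligand level, Jag1 held 35.5% ± 8.52 (SD, n = 4) in WT and 52.5% ± 12.6 in KO, and Dll4 26.9% ± 6.66 and 13.9% ± 2.85. Both overlapped, Dll4 only through WT replicate 1 (17.9%) and KO replicate 4 (18.0%). In KO replicate 4, Dll1 held 46.1% and Jag1 34.3%, whereas Jag1 led in the other 3 KO libraries at 54.1% to 62.0%.

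**Figure D3:**
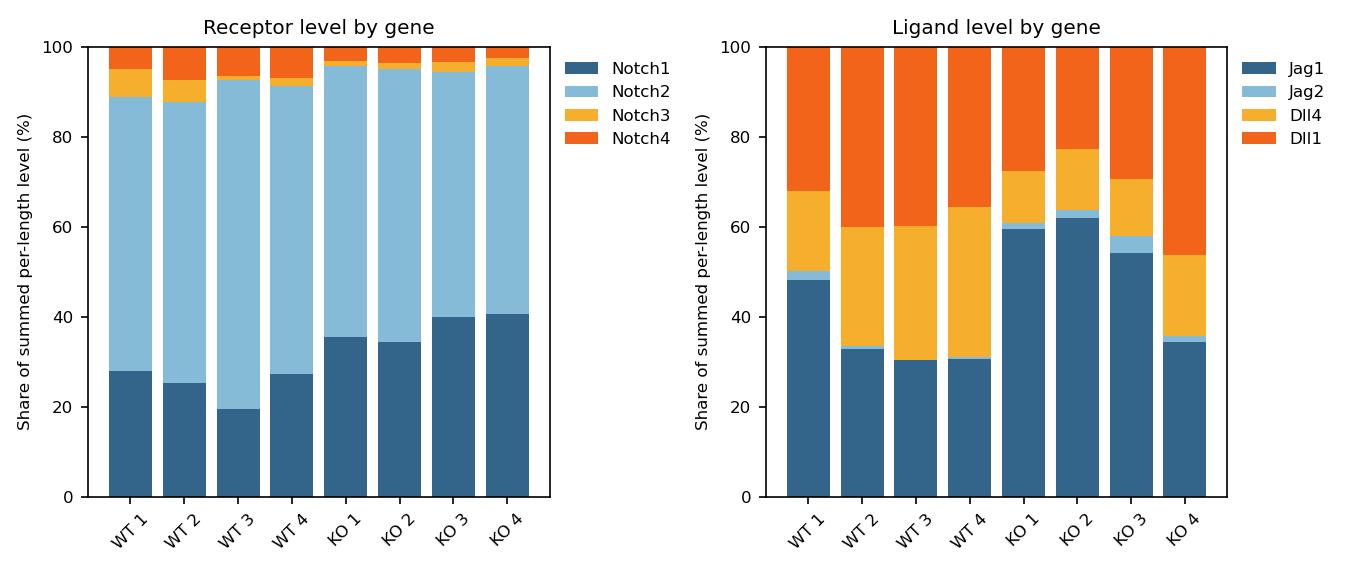
Share of the summed per-length level (percent, each bar adding to 100) held by each receptor (left) and each ligand (right) in the 8 libraries. The Notch1 share was 19.6% to 27.9% in WT and 34.5% to 40.6% in KO, and the Notch4 share 5.03% to 7.40% and 2.43% to 3.62%.

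Other genes of the pathway were read from 7 lists ordered by role. Of 51 such genes, 42 were tested, and 10 (23.8%) were called higher and 2 (4.76%) lower, beside the 17.6% and 12.5% of all genes. Without WT replicate 3, 13 were higher and 11 lower, in a fit that called 49.3% of all 16423 genes, 4267 higher and 3837 lower. Among ligands, Dll1 (-0.36 ± 0.25, adjusted p = 0.318) was the 1 gene tested of 5. Dll3 had 0 counts in all WT libraries and 3 counts summed over the KO libraries. In the same sums, WT then KO, Dlk1 had 1 and 47 counts, Dner 2 and 19, and Dlk2 3 and 3.

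In ligand endocytosis, 2 of 4 genes rose and 0 fell. Neurl1b, an E3 ligase that drives ligand uptake in the sending cell, rose from 0.515 ± 0.213 to 4.74 ± 1.54 CPM (log2 fold change 3.23 ± 0.39, adjusted p = 1.49e-04). Its paralog Neurl1a rose from 0.129 ± 0.101 to 1.55 ± 0.136 CPM (3.43 ± 0.45, adjusted p = 2.58e-04). Of 5 enzymes that add sugars to the receptors, Poglut1, which adds O-glucose, rose from 14.8 ± 0.864 to 23.2 ± 2.76 CPM (0.65 ± 0.16, adjusted p = 0.00996) and the other 4 were not called.

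Of 10 receptor cleavage genes, 2 rose, 1 fell and 7 were not called. The gamma-secretase subunits Aph1c (0.565 ± 0.135 to 4.23 ± 0.835 CPM, 2.83 ± 0.28, adjusted p = 4.45e-05) and Aph1b (1.81 ± 1.15 to 4.90 ± 1.84 CPM, 1.55 ± 0.45, adjusted p = 0.0254) rose. They are close copies of each other, so reads may be split between them. Furin, which cuts the receptor on its way to the surface, fell from 123 ± 38.6 to 70.4 ± 11.6 CPM (-0.80 ± 0.25, adjusted p = 0.0351). In the nuclear complex, 1 of 8 rose, the co-activator Maml2 (1.24 ± 0.569 to 2.66 ± 0.606 CPM, 1.03 ± 0.33, adjusted p = 0.0368).

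The calls of Aph1b, Furin and Maml2 did not survive leaving out single libraries. Aph1b lost its call without WT replicates 1, 2 or 4 or KO replicates 1 or 2 (adjusted p up to 0.076). Furin lost it without any library but WT replicate 3 (up to 0.101), when scaled by upper quartiles (0.0697) or by totals alone (-0.41, 0.317) and with the number runs as covariate (0.0534). Maml2 lost it without WT replicates 1 or 4 or any KO library (up to 0.112).

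Of 10 inhibitors and turnover genes, 2 rose and 8 were not called. Numbl, a relative of the Notch inhibitor Numb, rose from 0.470 ± 0.268 to 2.52 ± 0.105 CPM (2.33 ± 0.33, adjusted p = 4.48e-04). Dtx1, an E3 ligase that modulates Notch, rose from 0.265 ± 0.234 to 1.15 ± 0.376 CPM (2.03 ± 0.50, adjusted p = 0.0107). Of 9 other targets, 4 were tested, 2 rose and 1 fell. Ccnd1, the cyclin of cell cycle entry, rose from 13.2 ± 2.33 to 101 ± 23.6 CPM (2.93 ± 0.22, adjusted p = 7.63e-06). Sox9, a bile duct transcription factor, rose from 4.07 ± 2.5 to 12.1 ± 2.55 CPM (1.57 ± 0.36, adjusted p = 0.00788). Hes6, a Hes relative that opposes Hes1, fell from 78.1 ± 15.8 to 24.6 ± 6.42 CPM (-1.66 ± 0.23, adjusted p = 4.16e-04). Hes2, Hes3 and Hes5 had 0 counts in all WT libraries and 26, 3 and 2 counts summed over the KO libraries. Ccnd1 and Sox9 are also targets of pathways other than Notch, and 6 of 6 cell division markers rose.

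Markers of the cell types that use these genes moved as well, and in bulk tissue fewer cells of a type and less RNA per cell cannot be told apart. Of 14 endothelial markers, Kdr (30.6 to 15.3 CPM) and Flt1 (7.33 to 4.42 CPM) fell, Tek (9.33 to 25.3 CPM) rose and 11 were not called. The mean was lower in KO for all of them but Tek, and their median log2 fold change was -0.60, beside -0.05 over all genes tested. Their summed level was 232, 367, 256 and 370 CPM in WT and 167, 289, 230 and 224 CPM in KO. Of 4 arterial markers, Sox17 fell (-1.21 ± 0.29, adjusted p = 0.00981) and 3 were not called. Those 3 had higher means in KO, with log2 fold changes of 0.55 (Gja4), 0.36 (Efnb2) and 0.23 (Gja5). The sum of all 4 was 7.64 to 10.4 CPM in WT and 9.14 to 11.3 CPM in KO. The libraries' order by the endothelial sum matched that of Notch4 and Dll4 only in part. KO replicate 2 was highest in all 3, but KO replicate 1 had the lowest sum and the second highest Notch4, the lowest Notch4 was in KO replicate 4 and the lowest Dll4 in KO replicate 3. In WT, replicate 1 had the lowest endothelial sum and replicate 3 the lowest Notch4 and Dll4. The arterial sum ran, from high to low, through replicates 2, 4, 1 and 3 in both genotypes. Dll4 had that order in both genotypes, and Notch4 in WT only. The part of these cells in the Notch4 and Dll4 differences was not tested.

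Of 10 cholangiocyte markers, 7 of the 8 tested rose, with a summed level of 42.0 to 95.1 CPM in WT and 427 to 1028 CPM in KO. Epcam reached 23.7 ± 9.09 CPM from 0.713 ± 0.482. Of 9 myofibroblast and smooth muscle markers, 6 of 8 tested rose, from a sum of 26.3 to 70.3 CPM to one of 110 to 228 CPM, with Col3a1 at 2.15. Among 10 stellate cell markers 0 were called, and the nearest were Rgs5 (1.03, adjusted p = 0.0519) and Ecm1 (-0.83, adjusted p = 0.0542). The stellate sum was 199 to 277 CPM in WT and 257 to 311 CPM in KO. Jag1, Notch2, Notch3 and Heyl, which these cells are known to use, were not called beside them.

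Of 11 hepatocyte markers, 5 fell and 0 rose, with a median log2 fold change of -0.68. Of 9 macrophage markers, 1 rose (Marco, 3.15), of 8 lymphocyte markers 4 of 7 tested rose, and of 5 neutrophil markers 2 of 3 tested rose. Summed levels ran from 156 to 568 CPM in WT and 351 to 942 CPM in KO for macrophages, from 3.64 to 5.28 and 9.40 to 14.0 CPM for lymphocytes, and from 2.49 to 6.23 and 6.86 to 16.3 CPM for neutrophils, where Ly6g had 0 counts in WT. The hepatocyte sum was 73297 to 130770 CPM in WT and 47628 to 68696 CPM in KO. The part of these cell types in the Notch values was not tested.

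**Figure D4:**
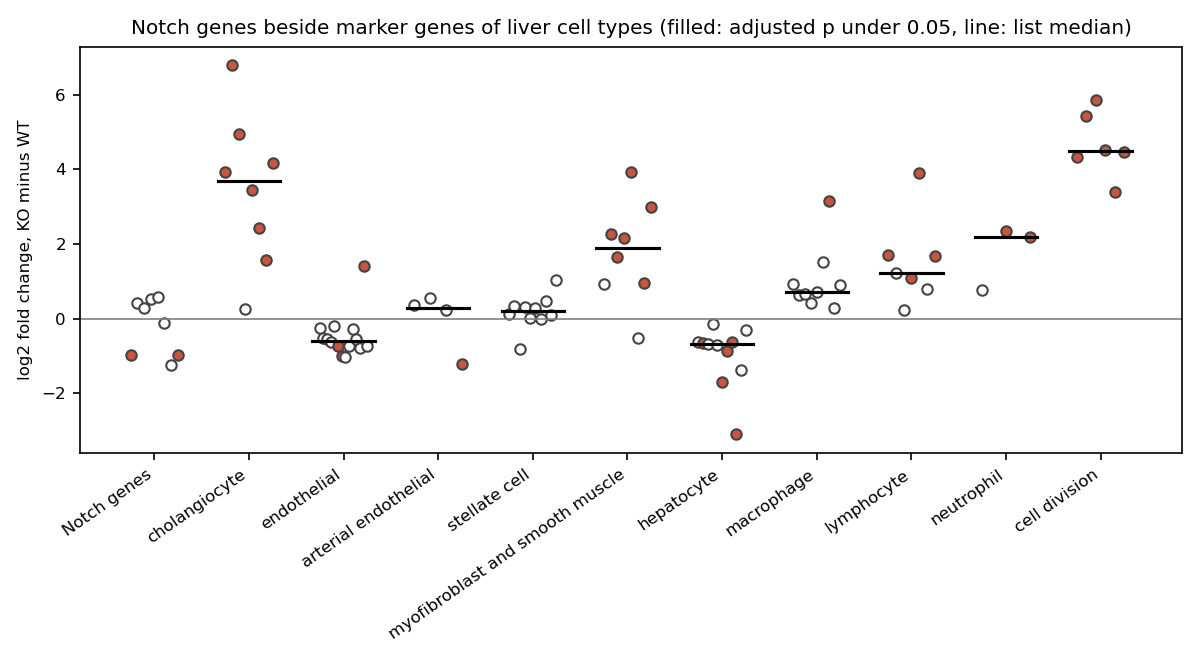
Log2 fold change (KO minus WT) of each tested Notch gene beside each tested marker gene of 10 lists, filled at an adjusted p under 0.05, with the list median as a line for the marker lists. The Notch genes lie between -1.24 and 0.57, while 7 cholangiocyte and 6 cell division markers were called higher.

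Leaving out 1 library removed both calls in 5 of 8 cases, and other scalings and weights changed which Notch genes passed. Scaling by library totals only called 34.4% of all genes, with Notch1 (0.96) and Hes1 (0.89) higher and 0 Notch genes lower. Weighting libraries by quality in limma-voom called 52.0% of all genes, with Notch1 (0.40) higher and Notch3 (-1.46), Notch4 (-1.26) and Dll4 (-1.17) lower. The direction of Notch1, Notch3, Notch4, Jag1, Dll4 and Hes1 was the same in every alternative fit. Notch2 and Heyl each changed sign in at least 1. Within the 3 number runs the log2 difference was 0.30, 1.04 and -0.47 for Jag1 and 0.66, 0.19 and -0.03 for Hes1. Notch2, Notch3 and Heyl also changed sign between number runs. Notch3 did so only in the run of WT replicate 3, where Heyl read 2.7.

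**Figure D5:**
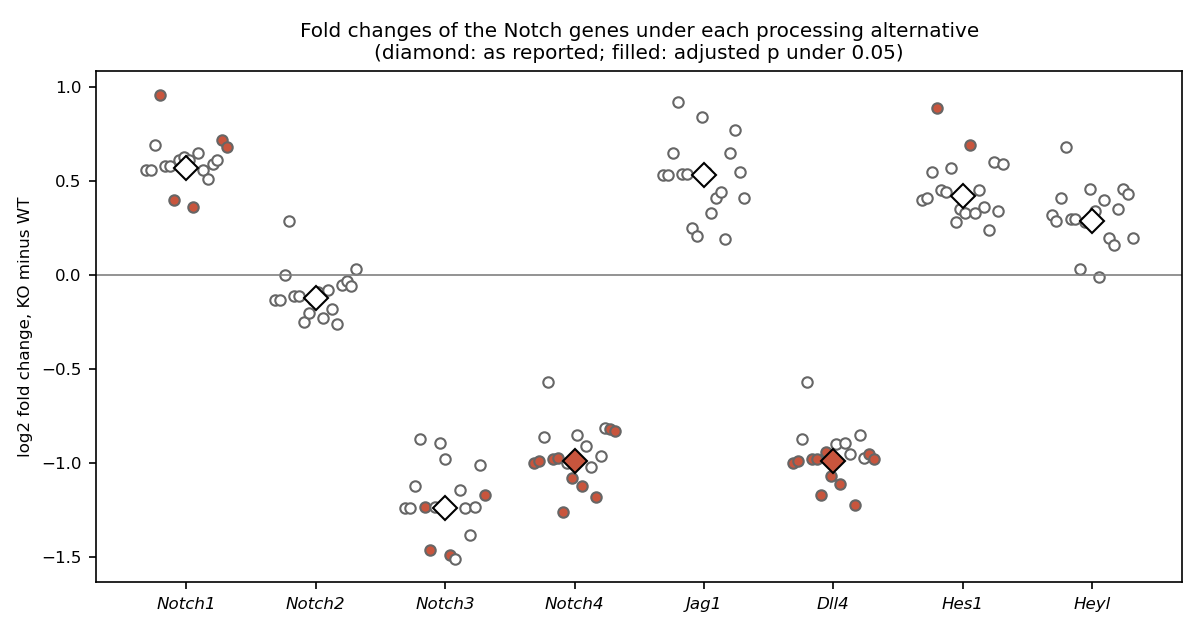
Log2 fold change (KO minus WT) of the 8 Notch genes tested as reported (diamond) and in each alternative fit (circles), filled at an adjusted p under 0.05. Notch4 and Dll4 stayed between -1.26 and -0.57 while their calls came and went, and Notch1 stayed between 0.36 and 0.96.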

How the data were processed

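RNA counts of 8 liver libraries were analysed. Per the submitters' processing notes, FastQC, cutadapt and STAR were used with mouse build mm10. No counting program, strand setting or annotation release is given in the sources used here. The deposited table holds raw counts per gene, which are whole numbers and sum to a different total per library. Coordinates, exon lengths and base composition came from GENCODE M21 of mm10, which matched 54079 of 54232 identifiers (99.72%), and promoter windows from RefSeq on GRCm38.p6, which matched 7 of the 10 genes.

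Genes were filtered with filterByExpr, scaled with TMM and tested by the edgeR quasi-likelihood method (edgeR 4.0.16, limma 3.58.1, DESeq2 1.42.0, R 4.3.3), with genotype alone in the model. The Benjamini-Hochberg adjustment ran over 15811 genes. CPM use TMM-scaled totals. SE is the log2 fold change divided by the square root of F, and intervals use the test's degrees of freedom. A count of 0 allows up to 3 counts, or 0.129 to 0.425 CPM per library. Library pairs differed by a chi-square of at least 21.3 per gene, so none repeats another within counting noise. Library names carry numbers that fall into 3 runs (A with 1 WT and 2 KO libraries, B with 1 and 1, C with 2 and 1). Run B holds WT replicate 3 and KO replicate 3. The labels do not call the runs batches.

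The genes and lists were chosen with earlier results of these data known. Named pathway genes are up to 3 called genes per list with the lowest p-value (up to 2 if none is called), and named markers come from the 4 lowest p-values per list. Krt19, Dlk1, Dner and Dlk2 were named after their values were seen, as were genes without counts in WT. The scripts were tested on simulated data. There the fit called 0 of 67 genes changed 1.5-fold, 13.6% of those changed 2-fold and 89.4% of those changed 4-fold. A Notch gene that was not called may therefore still differ by such small factors. In the simulation 12557 of 12756 genes were unchanged, while 30.0% were called in the data, so these shares do not carry over directly. The GC and length offset was chosen after seeing the data. It removes each library's trend with GC content and length, and with it any genotype difference that follows them.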

Additional observations from a re-analysis of the deposited data

Results flagged for a closer look

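Notch1 in WT replicate 3 read 9.34 CPM, against 18.9 to 19.8 CPM in the other 3 WT libraries. Its gap to the nearest of them was 0.917 of the group's range, above the critical value of Dixon's test. Hes1 in the same library read 13.7 CPM, against 6.95 to 7.48 CPM, with a gap of 0.921 of the range. Of 20 gene and genotype groups these 2 stood out, where chance alone flags about 1 in 20. The library was low for 53.2% and 59.7% of the genes in the upper 2 of 4 equal bins by GC content. Notch1 has 57.1% G and C in its longest transcript and Hes1 50.7%, and the part of base composition in these 2 values was not tested.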

How the results depend on the processing

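No paired analysis was possible because the labels give the libraries no shared replicate numbers. Against 4746 genes called, 2775 higher and 1971 lower, limma-voom with quality weights called 8226 (4280 and 3946), library totals only 4804 higher and 642 lower, upper-quartile factors 3167 higher and 1424 lower, no filter 4244 higher, a threshold of 0.01 2872 (912 lower), and the GC and length offset without WT replicate 3 8034 (3889 lower). Leaving out 1 library gave 3644 to 8104 calls, 2325 to 4267 higher and 1315 to 3837 lower. Among the 10 Notch genes, 0 were higher as reported, 2 with library totals only, and 1 each with no filter, voom or the offset. The offset without WT replicate 3 gave 2, and leaving out 1 library 0 to 3. As for the 2 lower calls, 0 remained with upper-quartile factors, library totals only or a threshold of 0.01, 1 with the number runs as a covariate, and 0 to 3 when 1 library was left out. Of the other pathway genes, 12 were called as reported, 27 with voom, 23 with the offset without WT replicate 3 and 9 to 24 without 1 library. The 2 lower pathway calls became 4 with DESeq2, 14 with voom, 8 with the offset, 10 with the offset without WT replicate 3, 1 with upper-quartile factors, library totals only or a threshold of 0.01, and 1 to 11 without 1 library. Signs changed for Notch2 with library totals only (0.29) and with the offset without WT replicate 3 (0.03), for Heyl without WT replicate 3 (-0.01, with 0.46 the highest value when 1 library was left out) and for Dll1 with library totals only (0.03). None of these 4 values was called, and the cause was not tested. Per-length shares stayed within 1 SD without WT replicate 3. Depth limits Jag2, Hey1, Notch3 and Heyl most, which had 2 counts or fewer in WT replicate 3.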
